A study of Saccharomyces cerevisiae with 26 samples.

Results

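The 8 genes described here encode the helicase that budding yeast (Saccharomyces cerevisiae) loads onto replication origins and the proteins that load it. They are MCM2, MCM3, MCM4, MCM5, MCM6 and MCM7, the subunits of the helicase, and its loaders CDC6 and TAH11, the gene for Cdt1. They were chosen by name, as 8 of 6002 protein-coding genes. The study asked how loss of the Forkhead transcription factors Fkh1 and Fkh2 alters origin timing, and it profiled transcription beside replication in WT and mutant cells. RNA polymerase II was mapped by chromatin immunoprecipitation of its subunit Rpb3, and RNA was sequenced with its strand kept, in 8 libraries each. The 4 groups of each assay had 2 libraries and were WT and fkh1Δfkh2Δ2C, growing asynchronously or held in G1 for 4 hours with α-factor, a pheromone of α cells that halts a cells before S phase. Cells grew in rich medium at room temperature. The strain labelled fkh1Δfkh2Δ2C is called the mutant below. Its label names deletions of FKH1 and FKH2 and does not say what 2C stands for. Replication was also read, from 2 libraries each of WT, fkh1Δfkh2Δ and fkh1Δfkh2Δ2C cells moved from a 4-hour α-factor arrest into hydroxyurea and BrdU for 1 hour. No label says that the libraries of a group came from separate cultures, so p-values measure the spread between these libraries, which may be technical.

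Licensing prepares each origin for one round of replication. Late in mitosis and in G1, the origin recognition complex (ORC) on DNA recruits Cdc6, and together with Cdt1 they load the Mcm2-7 ring around the double helix as an inactive pair of rings. In S phase some of these rings are turned into the moving helicase, while cyclin-dependent kinase blocks new loading, in part by driving the destruction of Cdc6 and the export of Mcm2-7 with Cdt1 from the nucleus. Transcription of the MCM genes and of CDC6 is known to peak around the end of mitosis and early G1, through the early cell cycle box bound by Mcm1 and held in check by Yox1 and Yhp1, and for CDC6 also through Swi5. FKH2 and FKH1 act earlier in the cycle, where they drive the CLB2 group of mitotic genes that includes SWI5.

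The libraries were checked before the genes were read. Mean Rpb3 signal over FKH1 was 27.6 to 40.4 in the WT libraries and 2.97 to 7.62 in the mutant libraries. Over the final 25% of FKH2 it was 27.2 to 40.3 in WT and 10.05 to 11.5 in the mutant, whereas the rest of FKH2 had 27.1 to 37.8 in WT and 46.5 to 58.1 in the mutant. FKH1 was thus low in the mutant over the whole gene, but FKH2 over its 3′ end only, which goes against a deletion of the whole of FKH2, so every direction given for the mutant is for the libraries so labelled. In the WT arrest all 8 listed pheromone response genes rose in Rpb3 signal (median log2 difference 3.08) and 7 of 8 core histone genes of S phase fell (median -2.06), by limma with Benjamini-Hochberg adjustment over all genes at a threshold of 0.05. In the mutant 8 of 8 pheromone response genes rose and 5 of 8 histone genes fell. The mitosis genes differed between the strains. Of 6, 4 fell in Rpb3 in the WT arrest (median -0.83), but 0 fell in the mutant arrest (median -0.20), where CDC20 rose. Of 7 a-cell markers, 6 could be tested, and 4 of them rose in arrested WT. Of 4 α-cell markers, 2 could be tested, and neither passed within either strain. The asynchronous WT Rpb3 library of replicate 1 stood apart from its partner. Their correlation over tested genes was 0.55, against 0.966 to 0.98 within the other groups. In that pair 432 of 6002 genes differed by more than 2-fold, against 1 to 3 genes in the other pairs, and its ribosomal protein genes were lower by a median log2 difference of -2.29. Rpb3 differences between mutant and WT in asynchronous cells and in the WT arrest are therefore given with and without it. For the averaged comparisons this was done for the genes named there. The difference between stages, the mutant against WT in arrest and the likeness of profiles are given with it only. Without it the lone remaining asynchronous WT library is assumed to vary like the other groups. All levels are the deposited normalized signal averaged over 50 bp bins, libraries of an assay share nearly 1 distribution, and read depth is unknown, so the values show change relative to other genes and not change of the total.

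Polymerase signal over the 8 genes was ordinary for yeast genes. Across all 8 libraries it ranged from 30.5 to 61.1, while the median over all genes was 38.9 to 39.8 and the median over 171 genes without RNA was 1.77 to 2.35. All 8 genes lay above that last median in every library. The quartiles of those 171 genes were 0 and 26.4 to 30.7, however, so some genes without RNA had signal near the lowest values of the 8. The median over all bins of the genome was 35.9 to 36.8, and MCM2, MCM4 and MCM6 lay near it, between 30.5 and 38.05 across libraries. How much of the Rpb3 signal over the 8 genes is background was not tested. In asynchronous WT the group mean of CDC6 was highest, at 48.2, followed by MCM3 at 47.1, TAH11 at 45.6 and MCM7 at 44.4, and each of these neighbours overlapped in its libraries. MCM4 at 35.8, MCM2 at 35.6, MCM5 at 33.7 and MCM6 at 32.8 came below. The 4 genes of the upper set were apart from the 4 of the lower set. In arrested WT the order opened with MCM3 at 51.1, MCM7 at 47.2 and MCM5 at 42.8, and CDC6 was last at 32.3. CDC6 was highest in the 4 asynchronous libraries, and in arrested libraries the highest gene was MCM3 in 3 and MCM7 in 1.

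**Figure D1:**
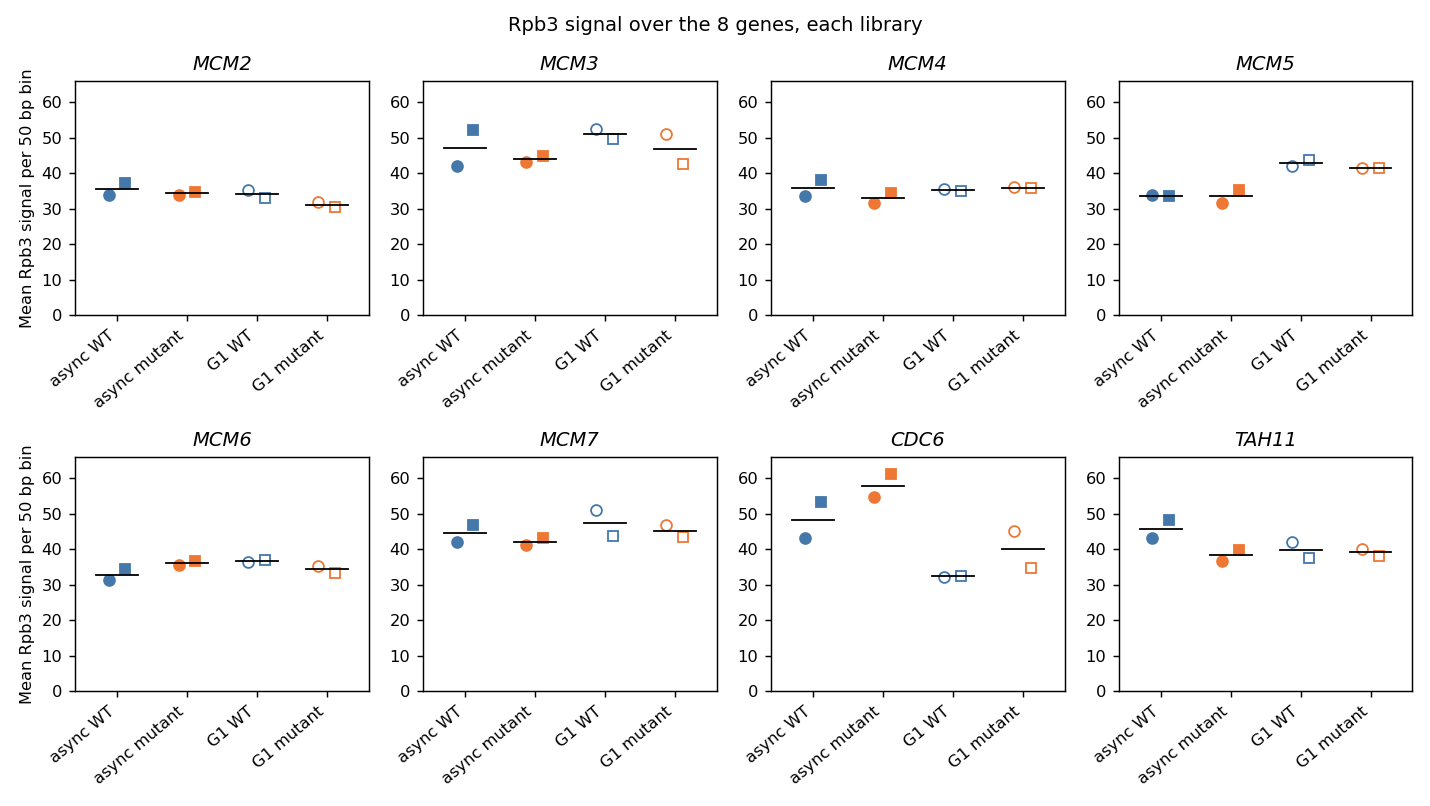
Mean Rpb3 signal per 50 bp bin over each gene, in every library; circles are replicate 1, squares replicate 2, filled symbols asynchronous, open symbols G1 arrest, blue WT, orange the fkh1Δfkh2Δ2C mutant, and black lines the group mean. CDC6 is lower and MCM5 higher in G1 arrest in the mutant and in WT, and the other genes stay within 30.5 to 52.6.

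RNA set the genes apart much more than polymerase did. Sense RNA signal was highest for TAH11, at 2.59 to 4.81, in 7 of 8 libraries, and MCM3, the subunit through which Mcm2-7 docks on ORC and Cdc6, led in the other one. CDC6 was lowest in 8 of 8 libraries, at 0 to 0.366. Within the helicase, MCM3 was highest and MCM4 lowest in the 6 libraries with a value for every subunit and also among the 4 Watson-strand subunits in the other 2, although the ring holds 1 copy of each subunit. The MCM3 signal was 5.04 to 14.4 times the MCM4 signal in RNA, with a median of 6.79 times, against 1.19 to 1.47 times in Rpb3. In arrested WT the order from the top was TAH11, MCM3, MCM2, MCM5, MCM6, MCM7, MCM4 and CDC6, and among neighbours in that order only TAH11 with MCM3 and MCM2 with MCM5 overlapped in their libraries. MCM2 (0.990 and 1.90) also overlapped with MCM6 (1.07 and 0.807), further down. In asynchronous WT, TAH11 stood above 87.7% of tested genes in RNA, MCM3 above 84.1%, MCM4 above 40.4% and CDC6 above 17.7%. Over the 8 genes the rank correlation of RNA with Rpb3 was between -0.07 and 0.53 in the 4 groups, a description over 8 genes. RNA was 0.0845 to 0.366 over CDC6 in asynchronous cells of both strains, although CDC6 carried the highest polymerase signal of the 8 there.

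MCM2 and MCM6, the Mcm2 subunit at the gate where DNA enters the ring and the Mcm6 subunit that binds Cdt1, lie on the Crick strand and have 1 asynchronous RNA library per strain. The other 6 lie on the Watson strand and have both. In the files' coordinates, whose build is not named by the labels or headers, MCM2 lies at chromosome II, 174901 to 177550, and MCM7 on the same chromosome at 625701 to 628250. MCM3 lies at chromosome V, 86901 to 89800, MCM4 at chromosome XVI, 596701 to 599500, MCM5 at chromosome XII, 691501 to 693850, and MCM6 at chromosome VII, 117801 to 120850. CDC6 at 69301 to 70850 and TAH11 at 522001 to 523800 lie on chromosome X. These spans cover the coding sequences. TAH11 RNA was not even along the gene. When its bins were split into 3 equal stretches, the one at the 5′ end carried 1.42 to 3.48 times the signal of the one at the 3′ end. The median was 2.49, and the 5′ stretch was higher in 8 of 8 libraries. Over longer genes with RNA in both end stretches, 909 to 1050 per library column, the medians of that ratio were 1.0 to 1.13. The 5′ stretch was also higher in 8 of 8 libraries for MCM3 (median 1.32) and in 6 of 6 for MCM2 and MCM6. It was higher in 0 of 8 for MCM4, 3 of 8 for MCM5, 4 of 8 for CDC6 and 5 of 8 for MCM7. In Rpb3 the same ratio for TAH11 was 0.945 to 1.41. In the 500 bp upstream of TAH11 the Rpb3 signal was 92.1 to 198.3, and SSC1, which encodes a mitochondrial Hsp70 chaperone, starts 445 bp away on the other strand. Upstream of MCM3 it was 129.3 to 257.6, and the neighbour on that side, MTC7, lies on the Watson strand like MCM3. For the remaining genes the upstream mean over libraries was 26.8 (MCM6) to 40.25 (CDC6).

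**Figure D2:**
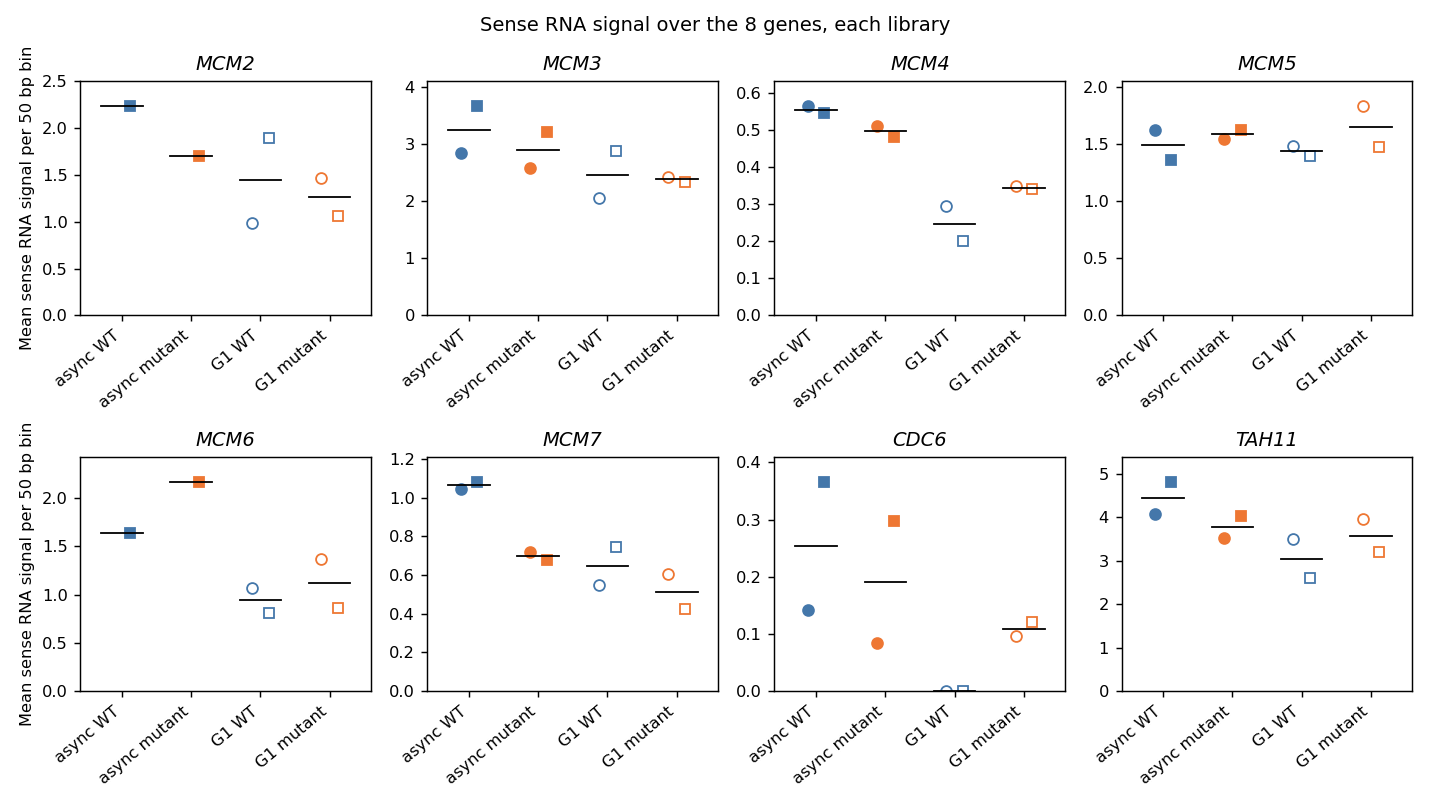
Mean sense RNA signal per 50 bp bin over each gene in every library, with a separate vertical scale per gene; circles are replicate 1, squares replicate 2, filled symbols asynchronous, open symbols G1 arrest, blue WT, orange the fkh1Δfkh2Δ2C mutant, and black lines the group mean. MCM2 and MCM6 have 1 asynchronous library per strain, and CDC6 is listed at 0 in both arrested WT libraries.

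The mutant and WT were compared first in growing cells. None of the 8 genes was called by limma in Rpb3 signal between the mutant and WT in asynchronous cells, and none in sense RNA. Over all 5401 tested genes the share called was 0% in each assay, with 1280 genes at an unadjusted p under 0.05 in Rpb3 and 210 in RNA. With no filter on low genes, 0 of 6002 genes were called in Rpb3. That includes FKH1, at 35.2 and 38.5 in asynchronous WT and 3.30 and 3.11 in the asynchronous mutant. A gene that was not called is therefore not shown to be unchanged. The median log2 difference of the 8 genes was -0.06 in Rpb3, beside -0.04 over all genes, and -0.20 in RNA, beside 0.07 over all genes.

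Among the helicase genes, MCM7, whose product forms one of the ring's ATPase sites with Mcm4, had RNA of 1.05 and 1.08 in the WT libraries against 0.721 and 0.676 in the mutant. Both mutant libraries were lower, as for 13.5% of genes with both libraries in each group, and the log2 difference was -0.57 ± 0.31 (SE), with an adjusted p of 1.0 by limma and a 95% interval of the fold from 0.411 to 1.11. In Rpb3 MCM7 had 42.0 and 46.8 in the WT libraries against 41.0 and 43.2 in the mutant ones, which overlap. The 6 MCM genes had Rpb3 log2 differences between -0.10 (MCM4) and 0.12 (MCM6). Without the asynchronous WT library of replicate 1 they lay between -0.23 (MCM3, from -0.09 with it) and 0.06 (MCM6), with MCM4 at -0.18, MCM7 at -0.14, MCM2 at -0.11 and MCM5 at 0.001, and none was called. The intervals for MCM2, MCM4, MCM5 and MCM6 with all libraries kept the Rpb3 fold between 0.821 and 1.22.

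The loaders were read in the same cells. TAH11 carried Rpb3 signal of 43.1 and 48.2 in the WT libraries against 36.6 and 39.9 in the mutant. Both mutant libraries were below both WT libraries, as for 35% of all genes. The log2 difference was -0.23 ± 0.09 (SE) with an adjusted limma p of 0.205 (unadjusted 0.0416). Without the asynchronous WT library of replicate 1 it was -0.31 with an adjusted p of 0.14, when 0.278% of all genes were called. TAH11 RNA was 4.08 and 4.81 in the WT libraries against 3.52 and 4.01 in the mutant, with a log2 difference of -0.23 and an adjusted p of 1.0. CDC6 carried Rpb3 signal of 43.1 and 53.4 in the WT libraries against 54.7 and 61.1 in the mutant. Both mutant libraries were higher, as for 24.6% of all genes, with a log2 difference of 0.25 ± 0.15 (SE) and an adjusted p of 0.29. Without the asynchronous WT library of replicate 1 the difference was 0.11 with an adjusted p of 0.689.

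In arrested cells the mutant and WT were compared next, and again none of the 8 genes passed the test in either assay. The share of all genes called was 0% in Rpb3, with 203 genes at an unadjusted p under 0.05, and 0.0555% in RNA. CDC6 had Rpb3 signal of 32.2 and 32.4 in the WT libraries against 45.2 and 34.8 in the mutant, a log2 difference of 0.27 ± 0.15 (SE) with an adjusted p of 0.998. Both mutant libraries were higher, as for 20.4% of all genes, and the gap between them was wider than the gap from the lower one to WT. CDC6 RNA was listed at 0 in both WT libraries and was 0.0968 and 0.121 in the mutant, where 22.8% of all genes were likewise higher in both libraries, with an adjusted p of 0.595 (unadjusted 0.0434). Such zeros were found in both arrested WT libraries for 79 of 5401 tested genes, against 29 genes in the arrested mutant. The mitosis markers moved with the same groups: the mean RNA signal over 6 mitosis genes was 0.142 to 0.219 in arrested WT and 0.544 to 0.593 in the arrested mutant, and CLB2, the main mitotic cyclin, was called higher among them in RNA (log2 difference 3.42, adjusted p 0.0182). Their part in the CDC6 values was not tested. In bulk samples a change in the share of cells at a stage and a change in RNA per cell cannot be told apart. The MCM genes had Rpb3 log2 differences between -0.12 and 0.02 and RNA log2 differences between -0.30 (MCM7) and 0.41 (MCM4) here. TAH11 was at -0.02 in Rpb3 and 0.24 in RNA.

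Averaged over both stages, CDC6 was higher in the mutant in Rpb3 by 0.26 ± 0.10 (SE) on the log2 scale, with an adjusted limma p of 0.302 (unadjusted 0.042), and without the asynchronous WT library of replicate 1 by 0.19 with an adjusted p of 0.24, when 2.3% of all genes were called. None of the 8 genes was called, beside 0% of all genes in Rpb3, with 878 genes at an unadjusted p under 0.05, and 0.0555% in RNA. The difference of the mutant effect between the stages was also tested, and none of the 8 passed, beside 0% of all genes in each assay (292 genes at an unadjusted p under 0.05 in Rpb3 and 223 in RNA).

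**Figure D3:**
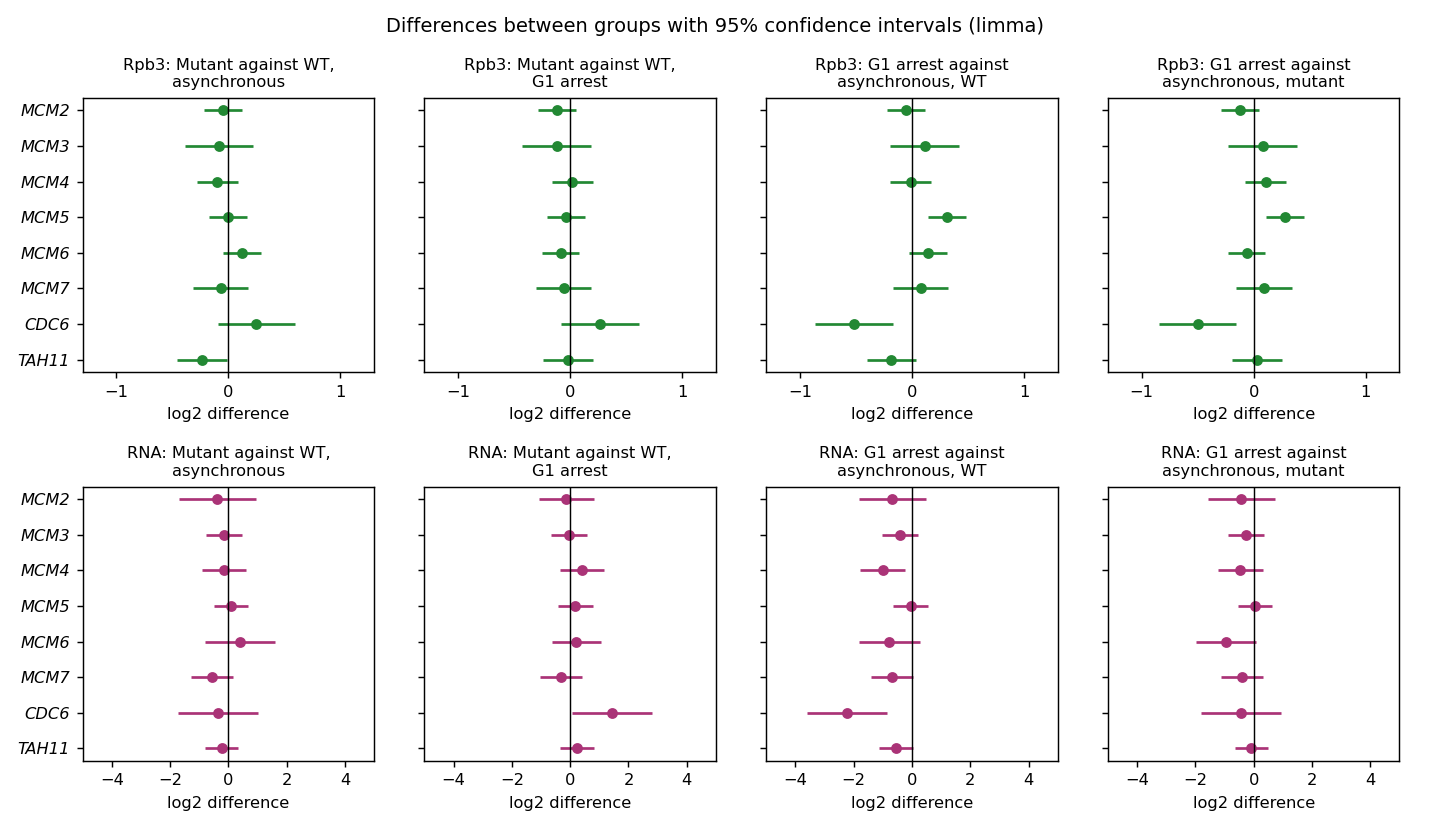
Differences in log2(signal + pseudocount) between groups, for Rpb3 in green above and sense RNA in purple below, with points for the limma estimate and lines for its 95% confidence interval. Positive values mean higher in the mutant (left 4 panels) or in G1 arrest (right 4 panels); the horizontal scales differ between the assays, no adjusted p of a member is under 0.05 in these comparisons, and the RNA differences of CDC6 that involve arrested WT depend on the pseudocount because CDC6 is listed at 0 there.

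The pheromone arrest was the other comparison of the design, within each strain. In WT none of the 8 genes was called in Rpb3, beside 3.76% of all genes, or in RNA, beside 2.15%. In the mutant none was called either, beside 2.17% of all genes in Rpb3 and 0.63% in RNA. The genes nearest to the threshold in Rpb3 were MCM5, which was higher in arrest, and CDC6, which was lower, in each strain.

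MCM5 encodes the subunit that closes the gate of the ring with Mcm2. Its Rpb3 signal was 33.9 and 33.5 in asynchronous WT and 42.0 and 43.7 in arrested WT. In the mutant it was 31.8 and 35.4 in asynchronous cells and 41.6 and 41.6 in arrest. All 4 arrested libraries lay above all 4 asynchronous ones, and 15.4% of all genes were higher without overlap in WT and 29.8% in the mutant. The log2 difference was 0.31 ± 0.07 (SE) in WT, with an adjusted limma p of 0.0753 and a 95% interval of the fold from 1.1 to 1.4. In the mutant it was 0.28 ± 0.07 (SE), with an adjusted p of 0.13. MCM5 RNA did not follow: it was 1.63 and 1.36 in asynchronous WT and 1.49 and 1.40 in arrest, and 1.55 and 1.63 in the asynchronous mutant and 1.83 and 1.47 in arrest, so the groups overlap. The RNA log2 difference was -0.04 ± 0.26 (SE) in WT, and it turned to 0.12 when each library was divided by its median.

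CDC6 moved the other way. Its Rpb3 signal was 43.1 and 53.4 in asynchronous WT and 32.2 and 32.4 in arrest, a log2 difference of -0.52 ± 0.15 (SE) with an adjusted p of 0.135 and a 95% interval of the fold from 0.55 to 0.889. In the mutant it was 54.7 and 61.1 in asynchronous cells and 45.2 and 34.8 in arrest, a log2 difference of -0.50 ± 0.15 (SE) with an adjusted p of 0.181. Within each strain both arrested libraries lay below both asynchronous ones, as for 24.6% of all genes in WT and 35.8% in the mutant. The ratio of CDC6 to MCM5 in Rpb3 was 1.27 to 1.72 in the 4 asynchronous libraries and 0.743 to 1.09 in the 4 arrested libraries. CDC6 RNA was 0.142 and 0.366 in asynchronous WT and listed at 0 in both arrested WT libraries, with an adjusted p of 0.117. In the mutant it was 0.0845 and 0.298 in asynchronous cells and 0.0968 and 0.121 in arrest, which overlap, with an adjusted p of 0.853. The difference of the CDC6 arrest effect between the strains was itself tested in RNA and had an adjusted p of 0.999 (unadjusted 0.067).

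Without the asynchronous WT Rpb3 library of replicate 1, CDC6 fell in the WT arrest by 0.66 on the log2 scale with an adjusted p of 0.0225, and 10.3% of all genes were then called. In the mutant arrest, where that library only enters the shared estimate of the spread, CDC6 (adjusted p 0.0209) and MCM5 (adjusted p 0.0279) were then called, beside 19.2% of all genes. MCM5 in the WT arrest then had a log2 difference of 0.32 with an adjusted p of 0.051.

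The arrest was also averaged over WT and the mutant, 4 libraries against 4, a comparison added after the data were seen. MCM5 rose by 0.295 ± 0.05 (SE) on the log2 scale with an adjusted limma p of 0.0182, and its 4 arrested libraries were all above its 4 asynchronous ones, as for 7.28% of all genes. CDC6 fell by 0.51 on the log2 scale (SE 0.10) with an adjusted p of 0.0346, beside 6.98% of all genes called in either direction. The CDC6 call ended with the replicate number as a block in the fit (adjusted p 0.0593), with no filter on low genes (0.0509) and with the median of the bins (0.058). Without the asynchronous WT library of replicate 1 the values were 0.30 (adjusted p 0.00597) for MCM5 and -0.58 (adjusted p 0.00296) for CDC6, and 29.3% of all genes were called, so that 2 of 8 was near the background. In RNA none of the 8 was called in this averaged comparison, beside 3.74% of all genes, and 4 had an unadjusted p under 0.05. Both Rpb3 calls also ended when an asynchronous mutant library or an arrested WT library was left out, or the arrested mutant library of replicate 2, with adjusted p from 0.0533 to 0.159. The MCM5 call alone ended without the arrested mutant library of replicate 1, at an adjusted p of 0.0805.

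The remaining 6 genes varied less in Rpb3. MCM6 was 31.2 and 34.5 in asynchronous WT and 36.4 and 36.9 in arrested WT, with a log2 difference of 0.14 ± 0.07 (SE) and an adjusted p of 0.351, while in the mutant the difference was -0.06. TAH11 was lower in arrested WT, at 42.1 and 37.4 against 43.1 and 48.2, with a log2 difference of -0.18 and an adjusted p of 0.367, and -0.26 with an adjusted p of 0.124 without the asynchronous WT library of replicate 1. In the mutant arrest the TAH11 difference was 0.03. MCM2, MCM3, MCM4 and MCM7 had log2 differences between -0.12 and 0.11 in both strains. Without that library the WT arrest difference of MCM3 changed sign, from 0.11 to -0.03, and that of MCM4 went from -0.01 to -0.09. MCM6 was then at 0.08, MCM2 at -0.11 and MCM7 at 0.01, and none of them was called.

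In RNA all 8 genes had a log2 difference below 0 in the WT arrest, with a median of -0.68 beside -0.18 over all genes. With each library divided by its median, 7 of 8 were below 0, MCM5 being the exception, the median was -0.52 and the median over all genes was -0.03. That scaling also moved the genes called from 46 higher and 70 lower to 46 higher and 43 lower. MCM4, the subunit whose tail is a main target of the Dbf4-dependent kinase, had RNA of 0.564 and 0.545 in asynchronous WT and 0.294 and 0.200 in arrest. The log2 difference was -1.01 ± 0.33 (SE) with an adjusted p of 0.171 (unadjusted 0.0153). Of the 6 genes with both asynchronous libraries, MCM4, MCM7, CDC6 and TAH11 had both arrested WT libraries below both asynchronous ones, as 36% of all genes did. In the mutant arrest 7 of 8 were below 0, with a median of -0.42 beside -0.16 over all genes, and MCM6 was farthest from 0 with a log2 difference of -0.95 ± 0.43 (SE, adjusted p 0.578, 1 asynchronous library). After scaling by the median, 6 of 8 were below 0. The share of bins listed at 0 moved with the groups, at 76.3% to 76.7% in asynchronous WT, 72.4% to 73.8% in the asynchronous mutant, 80.8% to 83.2% in arrested WT and 74.8% to 79.5% in the arrested mutant, and its part in these RNA differences was not tested.

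Other genes of licensing and of the same cell cycle window were read beside the 8. None of the 6 ORC genes passed the test in any comparison in either assay. CDC45, which joins the loaded ring to form the active helicase, rose in Rpb3 in arrest by 0.84 ± 0.08 (SE) on the log2 scale in WT (adjusted p 0.00367) and by 0.66 in the mutant (adjusted p 0.0117), while MCM10 and NOC3 were not called. Of 5 genes of licensing control (GRR1, CDC4, SIC1, CLB5 and CLB6), 1 fell in Rpb3 in the WT arrest, the S phase cyclin gene CLB6 (-0.75, adjusted p 0.0305), and none in the mutant arrest. Of 14 genes timed to the end of mitosis and early G1, 2 rose and 4 fell in Rpb3 in the WT arrest, beside 3.76% of all genes called, and their median log2 difference was -0.57. The cyclin gene PCL2 (2.03) and FAR1, which enforces the pheromone arrest (1.53), rose. EGT2 (-2.44), ASH1 (-0.91), SWI5 (-0.77) and the repressor gene YHP1 (-0.70) fell. In RNA 3 of 13 tested fell in that arrest, which were EGT2, YHP1 and YOX1, the other repressor of the early cell cycle box. In the mutant arrest PCL2 rose and EGT2 fell in Rpb3, and EGT2 fell in RNA. No gene of these 4 lists was called between the mutant and WT.

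The profiles of the 8 genes over the 8 Rpb3 libraries were set beside those of other genes, as a description over libraries that share groups, among tested genes whose SD over libraries was at least 50% of that of the profile. That left 5371 genes for the MCM mean, 2520 for CDC6 and 5174 for TAH11. The asynchronous WT library of replicate 1 was kept here, and likeness was not computed without it. The mean of the 6 MCM genes, whose SD over libraries was 0.07 on the log2 scale, was most like LYS12 (Pearson's r 0.923), LYS9, VPS36, ILV3 and MTO1. The 6 genes did not share a common profile, as r between them ran from -0.54 (MCM2 with MCM5) to 0.85 (MCM3 with MCM7). CDC6, with an SD of 0.33, was most like GLG1 (r 0.969), GIN4, YGR026W, RSR1 and RPB9. TAH11, with an SD of 0.118, was most like TOR2 (r 0.946), GAL80, PTK1, SRO7 and MAK32. None of the 5 closest genes to one profile was among those of another. An r over 0.9 was reached by 3 genes for the MCM mean, 45 for CDC6 and 11 for TAH11, so the 5 named for CDC6 had many near rivals.

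DNA replication across the same genes was read from immunoprecipitated BrdU, which replaces thymidine in newly made DNA, in cells released from the α-factor arrest into hydroxyurea for 1 hour, with 2 libraries per strain. Hydroxyurea stalls forks, so the signal marks DNA near origins that fired. These values were described without a test. In WT, MCM7 (group mean 17.55), MCM3 (16.2 and 17.7), CDC6 (15.4 and 17.8) and MCM5 (group mean 10.62) had high signal, above that of 82.2% to 87.2% of genes. In fkh1Δfkh2Δ2C, MCM7 was 1.96 and 2.30, MCM3 was 3.85 and 4.11, CDC6 was 7.90 and 8.37, and MCM5 was 5.04 and 4.76. The group mean of MCM7 was 8.24 times higher in WT, and only 0.883% of genes had a log2 difference below it. The mean of MCM3 was 4.25 times higher in WT. MCM4 was also lower in the mutant, at 1.82 and 2.90 against 5.26 and 4.26 in WT. MCM2 went the other way, from 2.45 and 4.55 in WT to 6.70 and 7.84 in the mutant, and so did TAH11, from 1.57 and 2.11 to 2.17 and 4.01, while MCM6 stayed at 2.11 and 2.23 in the WT libraries against 2.47 and 2.32 in the mutant. Of all genes, 88.6% had a log2 difference below that of MCM2 and 82.7% below that of TAH11. In the strain labelled fkh1Δfkh2Δ, MCM7 was 1.88 and 1.87 and MCM3 was 3.75 and 3.65. BrdU signal over FKH1 was 2.78 and 2.62 in that strain, against 19.5 and 21.8 in WT. Over FKH2 it was 18.9 and 9.60, against 5.96 and 10.4 in WT, and so was not low there. The values of that strain are therefore also for the libraries so labelled. In arrested cells the 95% interval of the Rpb3 fold between the mutant and WT was 0.81 to 1.14 for MCM7 and 0.745 to 1.14 for MCM3. For CDC6 it was 0.945 to 1.53 and for MCM5 0.865 to 1.09. In RNA the intervals were wider, at 0.493 to 1.33 for MCM7, 0.636 to 1.51 for MCM3, 1.04 to 6.95 for CDC6 and 0.752 to 1.71 for MCM5. The one for CDC6 depends on the pseudocount, as its RNA was listed at 0 in both arrested WT libraries, and its adjusted limma p was 0.595. Whether transcription of these genes is linked to their replication was not tested.

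**Figure D4:**
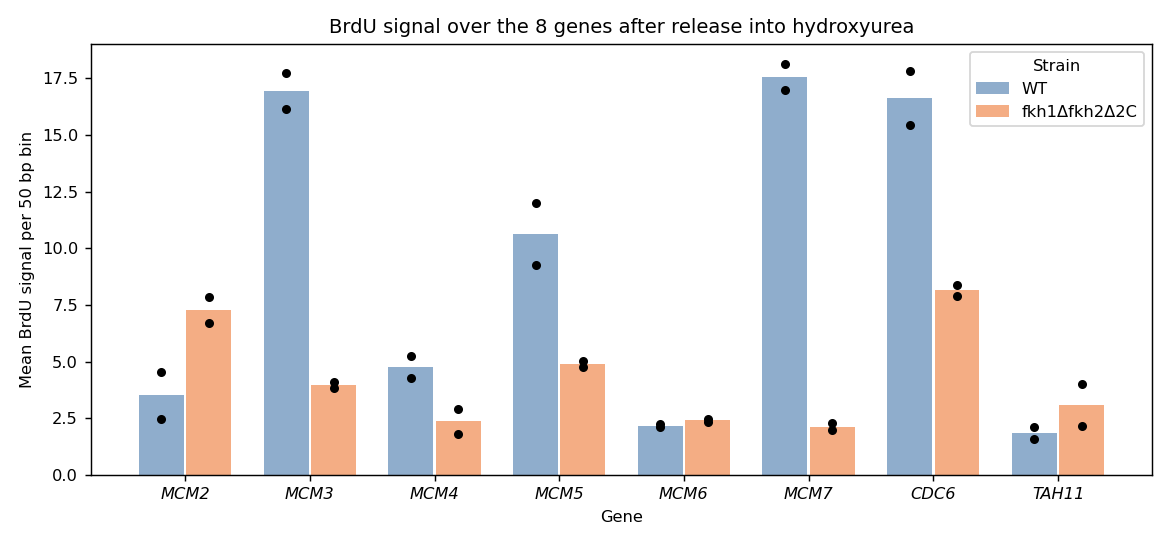
Mean BrdU signal per 50 bp bin over each gene in WT (blue) and fkh1Δfkh2Δ2C (orange); bars are the mean of 2 libraries and points the libraries. MCM7, MCM3, CDC6 and MCM5 are high in WT and lower in the mutant, MCM4 is lower and MCM2 and TAH11 are higher in the mutant, and MCM6 is low in both.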

How the data were processed

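The authors deposited 1 table per assay, with a normalized signal for 241409 bins of 50 bp, per the file headers. Neither the aligner nor the build nor how values were normalized is stated in the labels or headers. Genes, strands and lengths came from the RefSeq table of assembly R64 and were placed by fitting small shifts to the stranded RNA (within 1 bin for 96.1% of 6002 genes). Most RNA lay on the sense strand for 94.0% of genes, against 81.7% and 81.6% when genes were moved by 10 bins either way. The reverse columns hold Watson genes and the forward columns Crick genes. Another 2 RNA columns share a name and were not used. No sequences are shown. A gene's value is the mean of its bins, compared after adding a pseudocount and taking log2. Each assay had a single limma fit (version 3.58.1, R 4.3.3) of its 8 libraries with a variance trend and no covariate, 2-sided, with Benjamini-Hochberg adjustment over 5401 genes and 0.05 as the threshold. Pseudocounts were set to 10% of the median over genes (4.01 for Rpb3 and 0.0643 for RNA), so fold changes of low genes are understated. The lowest 10% of genes were left out, and all 8 genes described passed. Genes with a missing library were fitted by their own pattern of libraries and moderated together. The procedure was tested on simulated data. Groups came from the strain and cell stage tags; the titles of the double mutant repeat fkh1Δ where the tags give fkh1Δfkh2Δ. Depth is unknown, so no counting interval was given. By rule all 8 genes were to be named in every comparison; those far from the threshold are covered by ranges. Genes of the other lists are named where called, with at most 3 others per list. The 8 genes and the lists were chosen with earlier results of these data known. Alternatives covered the pseudocount, filter, summary, position, scaling, trend, groups fitted, replicate block and each library left out.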

Additional observations from a re-analysis of the deposited data

How the results depend on the processing

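Of 1939 values of the 8 genes under an alternative, 1859 kept their side of the threshold and, where not called, moved by no more than their standard error, 51 moved by more than that, 13 passed the threshold anew, 14 lost it and 2 reversed. Of the 1859, 1786 also kept their sign and 73 did not; in all, 87 of the 1939 had the other sign. In Rpb3, leaving out single libraries gave 0 to 1 genes called between mutant and WT in asynchronous cells and 0 to 1 averaged over both stages, in each case CDC6 without the asynchronous WT library of replicate 2, when as many as 2588 and 2323 of 5401 genes were called. It gave 0 to 1 in the WT arrest, CDC6 without replicate 1 and MCM5 without replicate 2 of asynchronous WT. It gave 0 to 2 in the mutant arrest, where 2 were called without either asynchronous WT library and 2 when only the groups compared were fitted, MCM5 and CDC6 each time. In the arrest averaged over both strains, 1 gene was called (MCM5) with no filter on low genes, 1 with the median of the bins and 1 with the replicate block, where CDC6 had an adjusted p of 0.0593, and leaving out single libraries gave 0 to 2. Over all genes, the 0 called in Rpb3 between mutant and WT in asynchronous cells became up to 2588 and the 203 of the WT arrest 30 to 2163 when single libraries were left out. Those of the mutant arrest (117) became 0 to 1058 in the same way, those of the averaged arrest (377) 141 to 1662, and the 0 of the difference between stages up to 1825. With only the groups compared in the fit they were 0 in the WT arrest and 1025 in the mutant arrest.

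In RNA, taking the median of the bins called 1 gene, MCM4, in 5 comparisons: mutant against WT in asynchronous cells (4.66), averaged over both stages, the mutant arrest, the difference between stages (-4.66) and the arrest averaged over both strains. The first and the fourth of these reversed its sign; the median of the bins is 0 wherever under 50% of the bins hold signal, and MCM4 had signal in 37.5% to 51.8% of bins in asynchronous libraries. Over all genes that summary called 212 in the WT arrest and 271 in the mutant arrest, against 116 and 34, while leaving out single libraries gave 9 to 69 and 0 to 30. Same-numbered libraries deviated together with correlations of 0.023 to 0.465 in Rpb3 and 0.002 to 0.14 in RNA. In Rpb3 they were highest between the strains of a stage, at 0.387 in asynchronous cells and 0.465 in arrest. No label says what a replicate number marks, so the main fit took no pairs and the block was an alternative. Apart from the CDC6 call in the averaged arrest, the block changed no call among the 8 genes. With only the groups compared in the fit, the averaged comparisons and the difference between stages gave no value, nor did the asynchronous RNA comparisons of MCM2 and MCM6; leaving out an asynchronous RNA library of replicate 2 gave none for these genes either. Depth is unknown, so what it limits could not be given.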
